A study of Homo sapiens with 4 samples.

Results

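The genes described here encode heat shock proteins and other chaperones: HSPA8, HSPA1A, HSPA1B, HSPA5, DNAJB1, HSP90AA1, HSP90AB1, HSPD1 and HSPE1. They were taken as 9 genes in 8 loci, since HSPD1 and HSPE1 share a promoter, and each locus was a gene span on hg19, given to the nearest kb and widened by 2 kb on either side. All peaks of the authors' unfiltered lists that touched these windows were members, which gave 11 of 17887 TAF3 peaks, 16 of 17975 H3K4me3 peaks and 36 of 61456 RNAPII peaks. The peak lists carry no gene names, so the label rests on position alone, and all 9 names were found in RefSeq. HCT116 is an established colorectal carcinoma line, at passages 15 to 18 here, and the labels name no heat shock, drug or other treatment. The 4 groups were chromatin immunoprecipitated with a polyclonal antiserum to TAF3 residues 290 to 389, with an antibody to H3K4me3 or with an antibody to RNAPII, and input DNA without antibody. Each group was 1 library, so there is no replicate error for any value below, and no test between libraries was possible.

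Chaperones bind unfolded or partly folded proteins and help them reach or keep their native form. Several of these genes are held at a high level in growing cells, and others are known for rapid induction by heat through heat shock factor, which binds repeats of GAA and its complement TTC known as heat shock elements. TAF3 is a subunit of TFIID, the general factor that nucleates the preinitiation complex, and its PHD finger is known to bind H3K4me3, the histone mark of active promoters. RNAPII at a promoter and along a gene marks polymerase that is paused or transcribing.

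Promoter sequences are given for the pair of near-identical inducible genes, HSPA1A and HSPA1B, and for the shared promoter of HSPD1 and HSPE1, because these loci stand at the ends of the order of RNAPII enrichment or next to it. The sequences are from RefSeq on GRCh38.p14, all on the plus strand, and are distinct in build from the hg19 peak positions. The HSPA1A sequence is chr6:31815293-31815542 and the HSPA1B sequence is chr6:31827488-31827737, each the 250 bases before the transcription start. The stretch between the starts of HSPD1 and HSPE1 is chr2:197500275-197500378, 104 bases long. Capitals mark the heat shock element core GAANNTTC, which the third sequence lacks.
HSPA1A: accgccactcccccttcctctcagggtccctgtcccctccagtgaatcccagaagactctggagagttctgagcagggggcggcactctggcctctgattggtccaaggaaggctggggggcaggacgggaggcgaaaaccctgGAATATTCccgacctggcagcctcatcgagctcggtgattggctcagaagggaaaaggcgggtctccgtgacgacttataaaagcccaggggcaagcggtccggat
HSPA1B: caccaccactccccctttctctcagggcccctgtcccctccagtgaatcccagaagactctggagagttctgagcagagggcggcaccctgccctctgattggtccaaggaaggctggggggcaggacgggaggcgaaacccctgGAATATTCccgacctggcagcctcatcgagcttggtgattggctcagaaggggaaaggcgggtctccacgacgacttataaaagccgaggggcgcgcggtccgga
HSPD1/HSPE1: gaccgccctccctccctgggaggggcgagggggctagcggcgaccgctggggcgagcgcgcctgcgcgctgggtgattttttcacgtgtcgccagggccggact

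The core GAANNTTC or its counterpart TTCNNGAA, searched on both strands and allowed to overlap, occurred in 7 of the 15 RefSeq promoters of the 9 genes, compared with 11.6% of all 34943 RefSeq promoters of the same 250 bases. At least 1 promoter of 7 genes held a core, and the promoters of HSPA5 and HSPE1 did not. The TATA box TATAAA was present in HSPA1A and HSPA1B and in 10.8% of all promoters. The HSPA5 promoter held the ER stress element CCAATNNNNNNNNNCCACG, which was found in 0.0744% of all promoters. These are matches of letters, not measured binding sites.

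TAF3 and RNAPII peaks were strongly enriched at the chaperone loci in these cells, with HSPA1A as the exception. Fold enrichment, the authors' ratio of tags at a peak's summit to the local background expected from input, ran from 48.5 to 157.66 for TAF3 at the strongest peak of the other 7 loci and from 133.5 to 289.9 for RNAPII. At HSPA1A these values were 11.6 and 23.7, from peaks that lay upstream of its span. The values of HSPA1A and HSPA1B are uncertain, because the placement of tags in this nearly identical pair was not tested. Over all 8 loci the median was 70.7-fold for TAF3, 157.02-fold for H3K4me3 and 182.7-fold for RNAPII, beside medians over the full lists of 24.4, 103.5 and 12.02. The strongest of several peaks was taken at each locus, so these medians are not like for like with those of the lists. At HSP90AA1 and DNAJB1 the strongest TAF3 peak was that of the upstream site, where RefSeq has WDR20 and TECR overlapping. The TAF3 median may therefore not be of chaperone promoters alone. The authors' filter kept peaks enriched over 5-fold whose false discovery rate was under 5%. It kept 9 of the 11 TAF3 peaks at these loci, against 65.8% of all TAF3 peaks. For H3K4me3 13 of 16 passed, against 79.5% of the list, and for RNAPII 22 of 36, against 40.7%. The H3K4me3 share was thus near that of its list. A filtered peak was present at 7 of 8 loci for TAF3 and for H3K4me3, and at 8 of 8 for RNAPII.

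**Figure D1:**
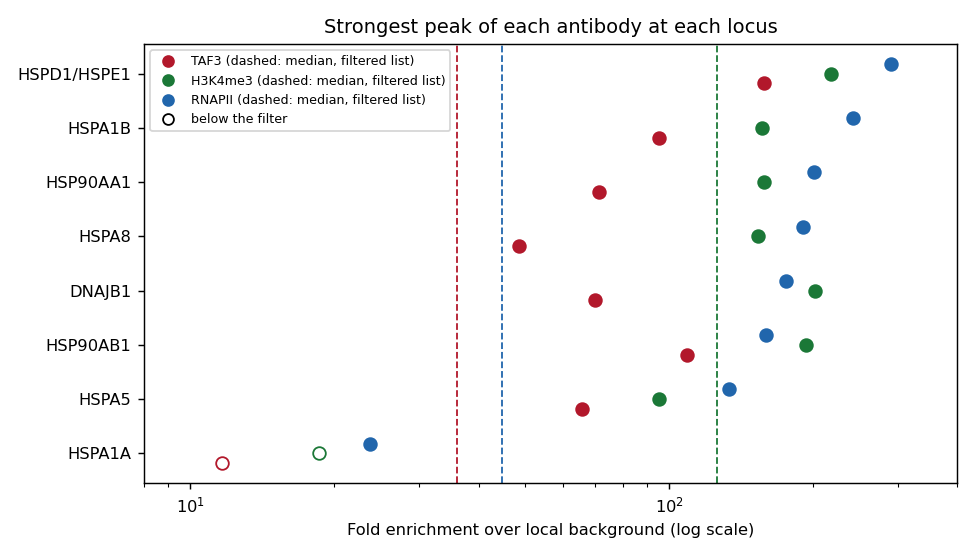
Fold enrichment (log axis) of the strongest peak of TAF3, H3K4me3 and RNAPII at each of the 8 loci, ordered by RNAPII, with 1 library per antibody and dashed lines at the medians of the filtered lists. HSPA1A lies apart from the other 7 loci in all 3 antibodies, and its TAF3 and H3K4me3 peaks (open circles) were below the authors' filter. Its TAF3 and RNAPII peaks lay upstream of the span, and tag placement at HSPA1A and HSPA1B is uncertain.

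To set these promoters beside others on equal terms, each filtered TAF3 peak was paired with the strongest filtered H3K4me3 and RNAPII peak that it overlapped. Both partners were present at 97.6% of all filtered TAF3 peaks, 11484 in number, and at all 9 filtered TAF3 peaks of the chaperone loci. HSP90AA1 and DNAJB1 contributed a pair of sites each, HSPA1A none, and the remaining 5 loci 1 each. The upstream site of each pair lies where RefSeq has another gene overlapping, WDR20 or TECR. Such a site cannot be assigned to the chaperone gene alone, and both are counted in the values over the 9 sites. TAF3 enrichment at the 9 sites was 48.5- to 157.66-fold with a median of 70.1, above the median of 36.7 over all sites in 9 of 9. RNAPII enrichment was 133.5- to 289.9-fold with a median of 175.5, above the all-site median of 109.4 in 9 of 9. H3K4me3 was 95.3- to 218.04-fold with a median of 157.5, beside 142.7 over all sites, and 7 of 9 exceeded that value. The top 10% by fold enrichment, which with ties held 9.98% of all sites for TAF3, 9.97% for H3K4me3 and 9.96% for RNAPII, took in 3 of the 9 sites for TAF3, 0 for H3K4me3 and 4 for RNAPII.

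Relative to all sites, the 9 therefore stood higher in TAF3 and RNAPII than in H3K4me3. The ratio of H3K4me3 to TAF3 fold enrichment was 1.38 to 3.16, with a median of 1.78, and lay below the all-site median of 3.65 at 9 of 9 sites. The ratio of RNAPII to TAF3 ran between 1.46 and 3.92, and its median was 2.30 beside 2.89 over all sites. It was above the all-site value at HSPA8 and, by less than the rounding, at the HSP90AA1 site further along the gene. Both ratios have TAF3 in the denominator, and TAF3 itself was above its median at all 9 sites.

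**Figure D2:**
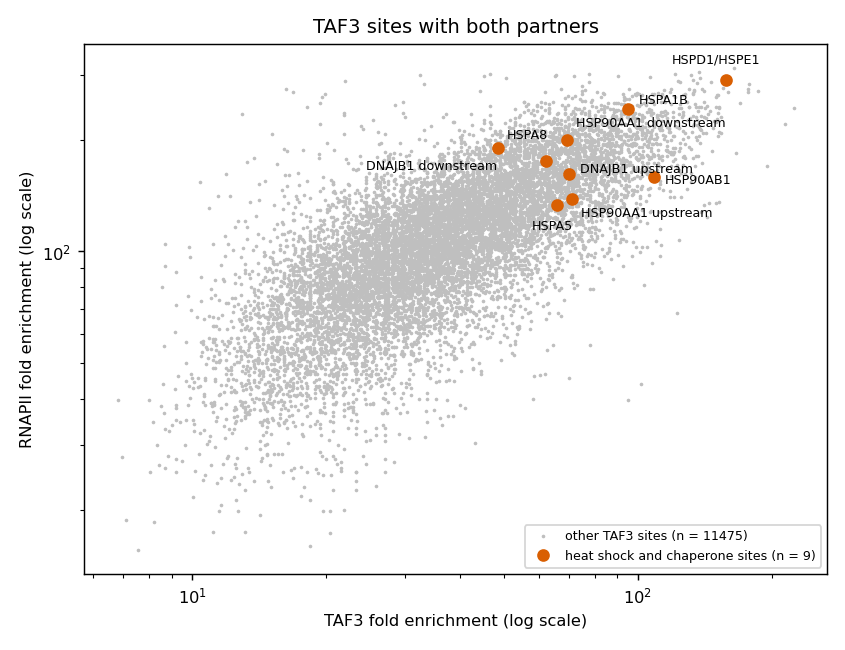
TAF3 against RNAPII fold enrichment (both axes log) at the 11484 filtered TAF3 peaks with both partners, with the 9 chaperone sites in orange and all other sites in grey. The 9 sites lie in the upper right of the cloud, led by HSPD1/HSPE1 at 157.66-fold TAF3 and 289.9-fold RNAPII.

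Among the cytosolic HSP70 genes, HSPA8 encodes the constitutive member, which folds new proteins and uncoats clathrin vesicles. Its TAF3 peak (chr11:122931601-122934681) had 48.5-fold enrichment and 765 tags (exact Poisson 95% interval 712 to 821, covering counting error only). The H3K4me3 peak (chr11:122930933-122935129) had 153.2-fold and 1924 tags. A single RNAPII peak (chr11:122923141-122934640) spanned 11500 bp with 2658 tags and 189.9-fold enrichment, the widest RNAPII peak of the 8 loci. By fold enrichment HSPA8 combined the lowest TAF3 of the 9 sites with RNAPII higher than at 91.7% of all sites. Its ratio of RNAPII to TAF3 fold enrichment, 3.92, was the highest of the 9. The TAF3 order differs by tags. Its 765 TAF3 tags were the most of the 9 sites, and its 248 tags per kb were above the lowest, 157 at the DNAJB1 site further along the gene.

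HSPA1A and HSPA1B encode the stress-inducible HSP70 and lie side by side on chromosome 6. HSPA1B was high in fold enrichment of RNAPII and TAF3. Its RNAPII peak (chr6:31794216-31795837) had 242.3-fold enrichment and 632 tags, and its TAF3 peak (chr6:31794295-31795834) 95.2-fold and 261 tags. The RNAPII peak ranked 148 of 61456 in its list and the TAF3 peak 445 of 17887. In tags per kb the RNAPII peak held 389.6, the TAF3 peak 169, with only the DNAJB1 sites lower, and the strongest H3K4me3 peak 231, the lowest of the 9. H3K4me3 at HSPA1B was split into 4 peaks, of which 1, with 15 tags, was below the authors' filter. The strongest (chr6:31795221-31795882) was only 662 bp wide with 156.6-fold and 153 tags. Of the H3K4me3 peaks paired with TAF3 sites, 0.0522% were narrower. This width depends on where the caller split the signal, since the next H3K4me3 peak ended close by, at 31795114.

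HSPA1A, by contrast, had no peak of any antibody over the first part of its span. A single TAF3 peak (chr6:31781899-31782451, 11.6-fold, 14 tags, false discovery rate 46.5%) and a single RNAPII peak (chr6:31781884-31782814, 23.7-fold, 70 tags, 2.13%) lay upstream of the span. RefSeq places HSPA1L on that side of HSPA1A. H3K4me3 gave a peak of 10.6-fold and 15 tags there and another of 18.6-fold and 16 tags inside the span (chr6:31785236-31785640). Summed over all peaks of a locus, HSPA1B held 261 TAF3 tags and HSPA1A 14, a ratio of 18.6 (exact 95% interval 10.9 to 34.6, counting error only). The sums were 370 and 31 for H3K4me3 (ratio 11.9, 8.26 to 17.8) and 792 and 70 for RNAPII (ratio 11.3, 8.85 to 14.7). These ratios compare places within 1 library, so they carry no replicate check. Since peaks are summed, tags outside called peaks are not in them.

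The pair has nearly the same sequence, which bears on how 35 bp tags can be placed. The 250 bases before the HSPA1A start were 93.6% identical to those of HSPA1B, with 235 matched bases, 14 mismatches and 2 gapped bases in a global alignment. Of the 216 stretches of 35 bases in that part of HSPA1A, 31 (14.4%) also occurred in the HSPA1B promoter. The sequence of the gene bodies was not used here, and how the authors' aligner treated tags that match in several places is not given in the sources used here. Peak outlines at HSPA1B ended abruptly on the right side, which faces into the gene. The right edges of the TAF3, H3K4me3 and RNAPII peaks fell within 48 bp of each other, compared with ranges of 489 to 2867 bp at the other 8 sites. HSPA8, HSP90AA1, HSPA5 and DNAJB1 are on the minus strand, so their left edges are the ones that face into the gene. Ranges of the left edges were 437 to 8460 bp at the other 8 sites and 1005 bp at HSPA1B. Past the right edges at HSPA1B, the next 1401 bp (chr6:31795883-31797283) held no peak of any antibody. At HSPA1A the stretch without a peak was 2421 bp long (chr6:31782815-31785235). Both stretches ended at a similar distance into the gene, 2235 bp after the rounded span start at HSPA1A and 2283 bp at HSPA1B. The part of tag placement in the difference between HSPA1A and HSPA1B was not tested, and their values are uncertain for this reason.

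**Figure D3:**
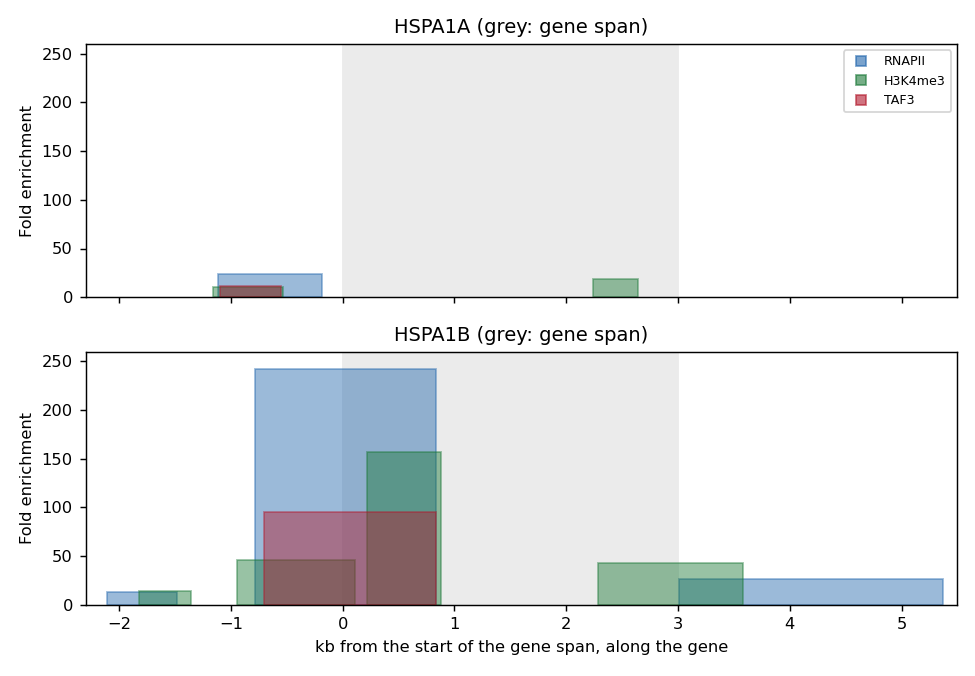
Peaks at HSPA1A and HSPA1B drawn as boxes whose width is the peak and whose height is its fold enrichment (linear axis from 0), against distance in kb from the span start. HSPA1B carries an RNAPII box of 242.3-fold over its start and an empty stretch of 1401 bp inside the gene, whereas all boxes at HSPA1A are at or below 23.7-fold.

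HSPA5 encodes BiP, the HSP70 of the endoplasmic reticulum and a sensor partner of the unfolded protein response. TAF3 at its promoter (chr9:128002685-128004767) was 65.9-fold enriched with 610 tags. RNAPII (chr9:128002194-128005975) was 133.5-fold with 964 tags. This fold enrichment was the lowest of the 9 sites, though 68.1% of all sites were lower. H3K4me3 (chr9:128001923-128005084) was 95.3-fold with 1447 tags. Its fold enrichment was higher than at only 19.1% of all sites and again the lowest of the 9. In tags per kb neither was the lowest. H3K4me3 held 458, beside 231 at HSPA1B, and RNAPII 255, beside 171 at the HSP90AA1 site further along the gene. RefSeq lists a divergent transcript, HSPA5-DT, next to it.

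DNAJB1 encodes an HSP40, which delivers clients to HSP70 and stimulates its ATPase. The locus had a pair of TAF3 sites. The upstream site (chr19:14639854-14641188) had 70.1-fold TAF3 with 223 tags, 201.7-fold H3K4me3 and 161.4-fold RNAPII. The site further along the gene (chr19:14628028-14629935) had 62.3-fold TAF3 with 300 tags, 166.3-fold H3K4me3 and 175.5-fold RNAPII. The sites differed in RNAPII extent. The RNAPII peak of the upstream site spanned 1402 bp with 407 tags, and that of the other site 7294 bp with 1357 tags, running past the end of the gene. RefSeq lists 3 starts for DNAJB1 and has TECR overlapping it, so the upstream site cannot be assigned to DNAJB1 alone.

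HSP90AA1 and HSP90AB1 encode the inducible and the constitutive cytosolic HSP90, which complete the folding of kinases and steroid receptors. HSP90AA1 also showed a pair of sites, and RefSeq lists 2 starts for it, with WDR20 overlapping at the upstream end. Its upstream site therefore cannot be assigned to HSP90AA1 alone. TAF3 was 71.4-fold enriched with 441 tags upstream (chr14:102605155-102607401) and 69.3-fold with 333 tags at the site further along (chr14:102552565-102554397). RNAPII was 138.7-fold over 1366 bp upstream and 200.3-fold over 6134 bp at the other site, with 573 and 1048 tags. H3K4me3 was 126.7-fold and 157.5-fold. As at DNAJB1, the RNAPII peak of the site further along the gene was the wider, and the upstream one held more tags per kb (419 against 171 at HSP90AA1 and 290.3 against 186 at DNAJB1). At HSP90AB1 TAF3 (chr6:44213374-44216381) reached 108.9-fold with 745 tags, H3K4me3 193.4-fold with 1739 tags and RNAPII 159.4-fold with 1481 tags. Its RNAPII to TAF3 ratio of 1.46 was the lowest of the 9 sites, and 3.47% of all sites were lower.

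HSPD1 and HSPE1 encode HSP60 and HSP10, the mitochondrial chaperonin and its lid, and are transcribed away from each other. By fold enrichment their shared promoter was the highest of the loci for all 3 antibodies. In tags per kb it was the highest for none. It held 253 for TAF3, beside 293 at HSPA5, and 272 for RNAPII, beside 419 at the upstream HSP90AA1 site. For H3K4me3 it held 423, beside 570 at the DNAJB1 site further along the gene. TAF3 (chr2:198363209-198366185) was 157.66-fold enriched with 752 tags and ranked 12 of 17887. RNAPII (chr2:198362482-198365962) was 289.9-fold with 947 tags and tied for rank 12 of 61456. H3K4me3 (chr2:198362256-198366952) was 218.04-fold with 1986 tags and ranked 1190 of 17975. The TAF3 and RNAPII summits lay 10 bp apart, at 198364527 and 198364537, and the H3K4me3 summit 144 bp from that of TAF3. Reads from the 2 directions cannot be told apart in these peaks.

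By the distance between the 3 log2 fold enrichments of their strongest peaks, HSP90AA1 and DNAJB1 were the most alike of the loci (0.41 log2 units). HSP90AA1 was also nearest to HSPA8 (0.56), HSPA1B (0.50) and HSPA5 (0.94). HSP90AB1 was nearest to DNAJB1 (0.65), and HSPD1/HSPE1 to HSPA1B (0.91). HSPA1A was 4.25 log2 units from its nearest locus. Each distance rests on 3 values from 1 library each, and at HSP90AA1 and DNAJB1 these values combine peaks of both sites.

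RNAPII peaks covered more of the span than TAF3 or H3K4me3 peaks did at 6 of the 8 loci, and H3K4me3 peaks covered the most at HSPA1A (13.5%) and HSPA1B (49.8%). Cover was taken from the full lists, of which that of RNAPII was the longest, and was not computed for other genes. TAF3 peaks covered 0 to 29.8% of the gene spans with a median of 18.4%, H3K4me3 peaks 8.54 to 49.8% with a median of 28.7%, and RNAPII peaks 0 to 100% with a median of 56.2%. RNAPII peaks covered 100% of the HSPA8 span, 99.9% of HSP90AB1, 97.2% of HSPA5 and 68.3% of HSPD1/HSPE1. The values were 44.1% at DNAJB1, 27.9% at HSPA1B, 23.2% over the 59 kb of HSP90AA1 and 0 at HSPA1A. Of the tags in RNAPII peaks, 60.1% lay outside the strongest peak at HSP90AA1, 58.01% at HSP90AB1, 51.2% at HSPD1/HSPE1, 40.1% at HSPA5, 26.25% at DNAJB1 and 20.2% at HSPA1B. HSPA8 and HSPA1A each had 1 RNAPII peak. These shares do not measure RNAPII along the gene alone. At HSP90AA1 and DNAJB1 they include the peak of the upstream site, with 573 and 407 tags. At HSP90AB1 they come from a peak whose summit (44225185) lay past the span. At HSP90AB1 the second RNAPII peak (chr6:44219254-44226461, 91.3-fold, 2046 tags) reached past the gene towards SLC35B2, its RefSeq neighbour, where H3K4me3 also had a peak (chr6:44223429-44225791, 120.9-fold). That H3K4me3 peak entered the 2 kb window, and the TAF3 peak beside it (chr6:44224263-44225542, 29.6-fold) began just outside it.

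**Figure D4:**
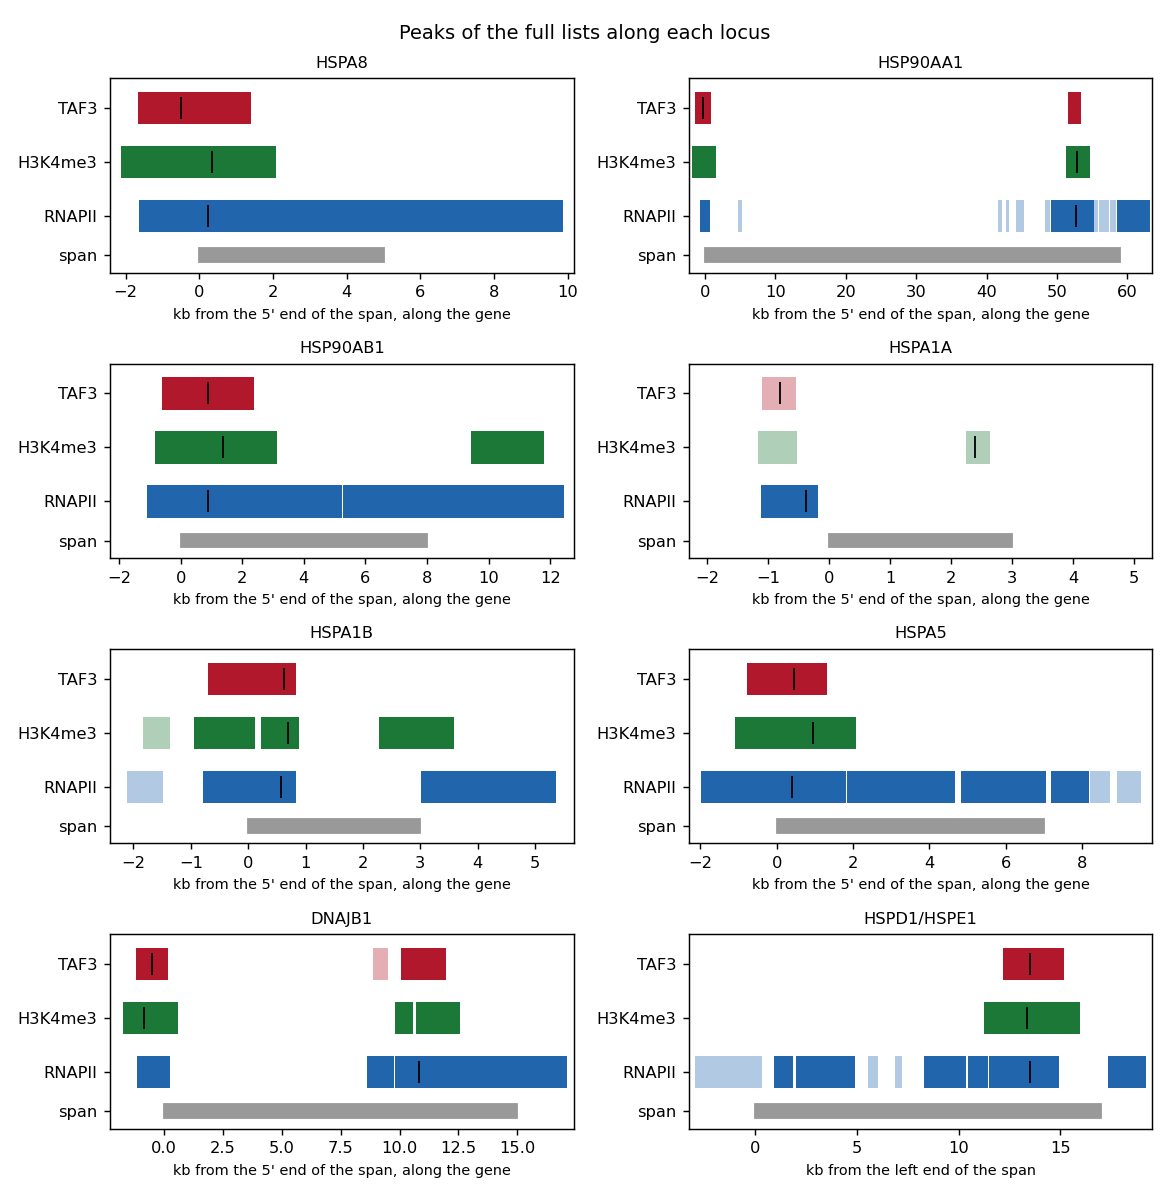
Peaks of the full lists at each locus against distance in kb from the gene span's start (from its left end at HSPD1/HSPE1), with peaks below the authors' filter pale and a black tick at the summit of each antibody's strongest peak. RNAPII boxes extend along and past the spans of HSPA8, HSP90AB1 and HSPA5, and TAF3 boxes cover at most 29.8% of any span.

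RNAPII peaks also lay in the 2 kb beyond the end of most of these genes. In the full lists they were present past the 3′ end of 8 of the 9 genes, H3K4me3 peaks past 2 and TAF3 peaks past 0. The share of all genes with such a peak was not computed, so these counts cannot be called particular to chaperone genes. At HSP90AB1 the RNAPII peak counted was the one reaching towards SLC35B2. The exception for RNAPII was HSPA1A, and the 2 genes with H3K4me3 there were HSP90AB1, at the peak by SLC35B2, and HSPA1B (42.5-fold). RNAPII had peaks distinct from the promoter peak at the 3′ ends of HSPA5 (chr9:127996937-127999176, 62.02-fold, 272 tags), HSP90AA1 (chr14:102542744-102547542, 42.04-fold, 738 tags) and HSPD1 (chr2:198348031-198351318, 39.9-fold, 421 tags). Smaller ones followed HSPA1B (26.7-fold, 135 tags) and HSPE1 (22.8-fold, 199 tags). RefSeq has RABEPK as the neighbour on the 3′ side of HSPA5, and HSPE1-MOB4 overlapping HSPE1. The peaks past these 2 genes therefore cannot be assigned to the chaperone gene alone. The HSPD1 peak had a deposited score of 3226 and a false discovery rate of 11.1%, so it is absent from the filtered list. The promoter peak had a score of 3100, as did RNAPII peaks of 407 and of 2658 tags at these loci. The score therefore does not order the strongest peaks. In the RNAPII list 40 peaks with a score of 3100 or more were left out by the filter. At HSPA8 and DNAJB1 the promoter peak itself ran through the 3′ end. With peak edges set by the caller, the outline of a wide peak does not give the profile inside it.

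TAF3 summits coincided with RNAPII summits at most of the sites, and the H3K4me3 summit lay to the side. The TAF3 and RNAPII summits were 0 to 735 bp apart with a median of 14 bp, beside 43 bp over all sites. The TAF3 and H3K4me3 summits were 66 to 867 bp apart with a median of 341 bp, beside 231 bp. At the second HSP90AA1 site TAF3 and RNAPII had the same summit base, 102553357, and at HSP90AB1 they were 1 bp apart. Along the direction of transcription that RefSeq gives, the H3K4me3 summit lay downstream of the TAF3 summit at 6 of the 8 sites of single genes, by 66 bp at HSPA1B and 867 bp at HSPA8. It lay upstream at the first sites of HSP90AA1 (240 bp) and DNAJB1 (341 bp). RefSeq has a gene that overlaps the member at both, WDR20 and TECR. Only the strongest H3K4me3 peak of a site was used. At HSPA1B and the DNAJB1 site further along the gene, a weaker filtered H3K4me3 peak had its summit upstream of that of TAF3. These were 45.97-fold at 31794683 and 35.8-fold at 14629732. HSPA8 was the site whose TAF3 and RNAPII summits were furthest apart, with RNAPII 735 bp downstream, and 95.4% of all sites had a smaller distance. When the strongest peak of each antibody was taken per locus, the median distances were 240 bp to RNAPII and 487.5 bp to H3K4me3. The strongest TAF3 and RNAPII peaks belong to different sites at HSP90AA1 and DNAJB1, as do the strongest TAF3 and H3K4me3 peaks at HSP90AA1.

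**Figure D5:**
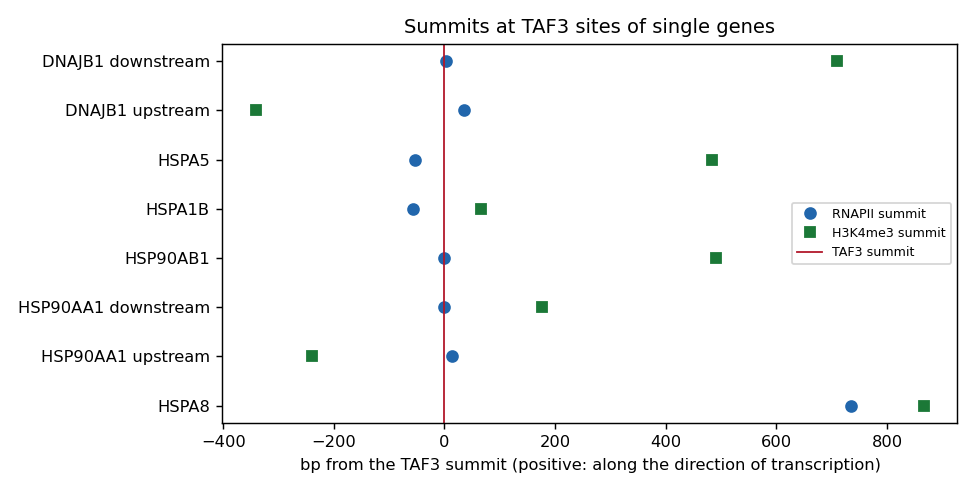
Positions of the RNAPII (circles) and H3K4me3 (squares) summits in bp from the TAF3 summit at the 8 sites of single genes, positive along the direction of transcription. RNAPII lies within 56 bp of TAF3 at 7 of the 8 sites and 735 bp downstream at HSPA8. The summit of the strongest H3K4me3 peak lies downstream at 6.

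After duplicate removal the libraries held 12560129 (H3K4me3) to 19185386 (input) tags. Since 1 tag was kept per position, the tag count of a peak is bounded in every library. The redundant share of the whole library was 40.2% for H3K4me3 and 14.2 to 16.1% for TAF3 and RNAPII. Where the removed tags lay was not examined. Fold enrichments of different antibodies are relative to the same input and are not levels on a common scale.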

How the data were processed

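ChIP-seq libraries of HCT116 cells for TAF3, H3K4me3, RNAPII and input, 1 each, had been fixed for 10 min in 1% formaldehyde and read for 36 bp, per the labels' protocols. Per the submitters' processing notes CASAVA 1.8.2, MACS 1.4.2 and build hg19 were used. Per the file headers, each antibody was called against the same input, with a p cutoff of 1e-05, tags of 35 bp and 1 tag kept per position. The deposited tag counts per peak are raw. Fold enrichment, as deposited, is a ratio to local background, the score they deposited is 10 times the negative logarithm (base 10) of the p-value, and the deposited percent is MACS's false discovery rate. All per-peak values are the authors'. Their filtered lists were checked to hold exactly the peaks above 5-fold and below 5%.

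Peaks overlapping a window by at least 1 bp were taken. All 9 genes are named, and the members and lists were chosen with earlier results of these data known. A wider chaperone gene list was not analysed here, because the gene table is on GRCh38.p14. RefSeq on that build gave strand, neighbours and promoter sequence only. Motif and tag sharing use the 250 bases before each start. Alternatives varied the window, list, choice of peak and loci. Overlap counting was checked on simulated intervals and against bedtools 2.31.1 (4 of 4 checks passed). Tools were Python 3.11.15 with biopython 1.88, pandas 2.3.3, scipy 1.17.1, numpy 2.4.6 and matplotlib 3.10.9.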

Additional observations from a re-analysis of the deposited data

Results flagged for a closer look

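Peaks of the filtered lists also lay between 2 and 5 kb from a span, outside the windows compared above. Next to HSPA1B, on the side of SNHG32, were an RNAPII peak of 265.8-fold (chr6:31801905-31811720, 2136 tags), an H3K4me3 peak of 188.3-fold (1322 tags), a TAF3 peak of 98.7-fold (287 tags) and a further RNAPII peak of 23.98-fold. Between HSPA1A and HSPA1B lay an H3K4me3 peak of 41.9-fold (chr6:31788988-31791118), an RNAPII peak of 34.5-fold and a TAF3 peak of 12.5-fold. The TAF3 peak of 29.6-fold by SLC35B2 lay past HSP90AB1, and an RNAPII peak of 13.25-fold past HSP90AA1. No control library has a peak list to set beside these.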

How the results depend on the processing

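With 1 library per antibody no replicate could be left out, and the precision of every value is limited by that. No paired analysis was possible because each group has 1 library. The number of loci with a peak was 7 or 8 of 8 under all alternatives run. Of 44 alternative values 26 equalled the reported value to 3 significant digits or, for counts of loci, within 1.5 times of it. Median fold enrichment, with the strongest peak chosen by tags, was 68.6 for TAF3 and 154.9 for H3K4me3. Without extension of the spans it was 71.4 for TAF3 and 189.9 for RNAPII, with 5 kb added 172.9 for H3K4me3, from the filtered list 71.4 for TAF3, and without HSPA1A and HSPA1B 175.4 for H3K4me3. The cover of the spans was 18.2% for TAF3 and 52.7% for RNAPII from the filtered lists. Over spans extended by 2 kb TAF3 covered 19.7%, H3K4me3 27.3% and RNAPII 65.9%, and without HSPA1A and HSPA1B RNAPII covered 82.8%. The median distance between TAF3 and RNAPII summits of 240 bp became 44.5 bp to the nearest summit and 394.5 bp without HSPA1A and HSPA1B. That between TAF3 and H3K4me3 of 487.5 bp became 290.5 bp to the nearest summit. Over the 9 sites, an alternative chosen after seeing the data, the distances were 14 and 341 bp.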
